A study of Bos taurus with 8 samples.

Results

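Cycling cells were followed here in single-cell RNA-seq of bovine peripheral blood mononuclear cells (PBMCs). A cell barcode was counted as cycling when its unique molecular identifiers (UMIs, the counted transcript molecules) of MKI67, TOP2A and CENPF summed to at least 3. Of 30732 barcodes with at least 200 detected genes, 876 (2.85%) met this rule. Blood of 4 Holstein cows, lactating females of 2 years, was mixed and divided into a part without lipopolysaccharide (no LPS) and parts that met LPS at 2 µg/ml and were taken after 2 h, after 4 h and after 8 h, and PBMCs were isolated from each. LPS is the outer membrane component of Gram-negative bacteria that TLR4 recognises. Each treatment gave 1 library from the same pool of 4 animals, so differences between animals were not measured and no comparison between treatments has a replicate. How long the part without LPS was kept was not given in the sources used here, so LPS and time in incubation cannot be told apart.

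A cell that divides copies its DNA in S phase, checks it in G2 and separates the chromosomes on the spindle in mitosis, and it makes many of the proteins for these steps only while it cycles. MKI67 encodes Ki-67, which coats mitotic chromosomes, TOP2A the topoisomerase that untangles sister DNA, and CENPF a kinetochore protein. Most lymphocytes in blood are at rest. Dividing cells in blood include plasmablasts, which are antibody-secreting cells on the way from B cell to plasma cell, and T cells that have recently met antigen.

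The 4 libraries held between 3857 and 10417 barcodes with at least 200 genes, with between 30901018 and 63761174 UMIs in them. The 8 h library was the one with fewest barcodes and UMIs. Only 93 barcode sequences were found in more than 1 library, and 0.605% of the barcodes carried one of them. Such a sequence was carried by 10 cycling barcodes, and no sequence was cycling in more than 1 library. Intervals given below are exact 95% binomial intervals for shares and exact 95% Poisson intervals for levels, and they cover counting error only. The Poisson intervals take UMIs as independent, so the spread between barcodes is not in them. Levels are counts per 1000000 UMIs (CPM), from the UMIs summed over a group of barcodes. A gene is called higher or lower where the ratio of (CPM + 10) was at least 2-fold, and between groups of barcodes this was asked in each of the 4 libraries. No call is a test.

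The barcodes were chosen by the measured UMIs of 3 genes, so the levels of these genes describe the choice. MKI67 stood at 467, 594, 550 and 528 CPM in cycling barcodes of the no LPS, 2 h, 4 h and 8 h libraries, and at 3.49, 4.70, 3.44 and 4.95 CPM in the other barcodes. TOP2A stood at 397, 422, 414 and 497 CPM against 1.70, 1.44, 0.928 and 2.98 CPM. CENPF stood at 459, 461, 433 and 512 CPM against 2.42, 2.50, 2.14 and 4.08 CPM. MKI67 was detected in 96.1% of cycling barcodes, CENPF in 89.0% and TOP2A in 82.1%. The cycling barcodes together held 96.5% of all UMIs of the 3 genes while holding 13.8% of all UMIs.

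The label was checked on PCLAF, a protein that binds the replication clamp PCNA, and BIRC5, which encodes survivin of the chromosomal passenger complex. Neither gene was in the rule, although both were read in the same barcodes. PCLAF was detected in 749 of 876 cycling barcodes (85.5%, 83.0 to 87.8%) and in 1.05% of the others. Its level was 322, 355, 306 and 278 CPM in cycling barcodes against 3.09, 1.57, 1.61 and 3.81 CPM. BIRC5 was detected in 738 cycling barcodes (84.2%, 81.7 to 86.6%) and in 1.18% of the others, at 232, 233, 203 and 260 CPM against 1.96, 2.25, 1.69 and 3.21 CPM. For both genes the level was higher in cycling than in other barcodes of every library.

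The median sum of the 3 rule genes was 29 UMIs and the largest was 370. A sum of at least 10 was reached by 668 of the 876 barcodes, and in these PCLAF was detected in 97.3% and BIRC5 in 97.5%. The 71 barcodes just inside the limit, with a sum of 3, had a median of 8114 UMIs, PCLAF in 19.7% and BIRC5 in 18.3%. The 208 barcodes just outside it, with a sum of 2, had a median of 6659 UMIs, PCLAF in 15.9% and BIRC5 in 10.1%. Barcodes on either side of the limit were closer to each other in depth, PCLAF and BIRC5 than to those of high sums.

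Cycling barcodes held more RNA than the rest. Their median was 22096, 25438, 29937 and 36971 UMIs in the no LPS, 2 h, 4 h and 8 h libraries, against 4109.5, 4119, 4856 and 4935 UMIs in the others. Median detected genes were 3767, 3927, 4192 and 5005.5 against 1377, 1375.5, 1537 and 1569. The mitochondrial share was alike, with a median of 2.33% in cycling barcodes and 2.16% in the others. A barcode with more UMIs reaches a sum of 3 more easily, and a barcode that holds more than 1 cell also has more UMIs. The parts of cell size, multiplets and sampling depth in this difference were not tested.

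From 2000 UMIs upward, deeper barcodes were more often cycling. The share was 0.501% (0.306 to 0.772%) among barcodes under 2000 UMIs, 0.288% (0.206 to 0.392%) at 2000 to 5000, 0.856% at 5000 to 10000, 5.97% (5.13 to 6.90%) at 10000 to 20000, 28.6% (25.9 to 31.3%) at 20000 to 40000 and 57.3% (52.5 to 62.0%) at 40000 or more. In the deepest bin it was 55.3%, 66.3%, 67.9% and 40.6% in the no LPS, 2 h, 4 h and 8 h libraries. Over 3000 genes were detected in 679 of the 876 cycling barcodes (77.5%) and in 4.73% of the others. The study's methods name 3000 genes as an upper limit of quality control. That limit would leave 87, 61, 40 and 9 cycling barcodes in the 4 libraries, 197 in all.

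**Figure D1:**
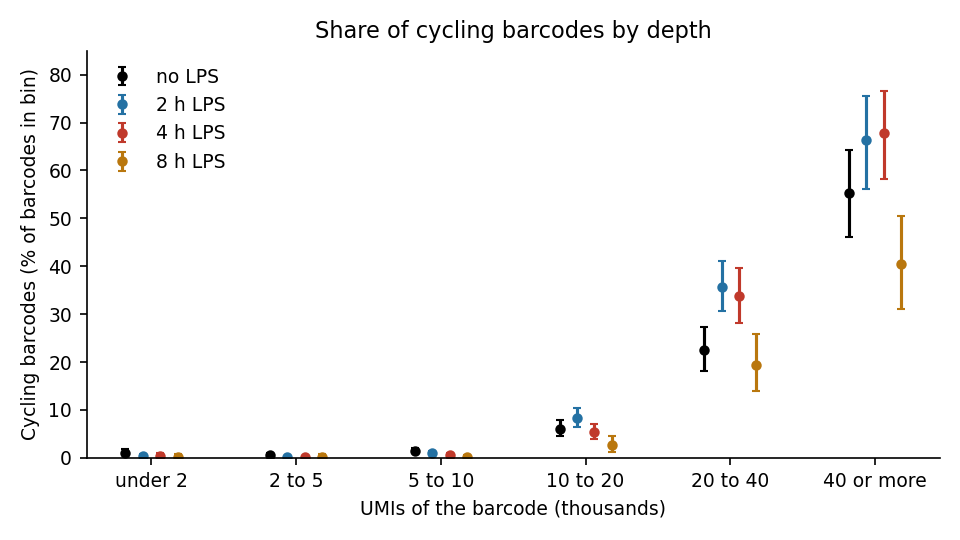
Share of cycling barcodes (percent of barcodes in the bin) in 6 bins of UMIs per barcode, with 1 point per library and exact 95% binomial intervals as bars. In all 4 libraries the share is low below 10000 UMIs and reaches 40.6% to 67.9% at 40000 UMIs or more.

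As counted, with no upper limit on genes, the share of cycling barcodes lay between 2.49% and 3.12% over LPS time. There were 265 cycling barcodes in the no LPS library (3.12%, 2.76 to 3.52%). The 2 h library had 283 (2.72%, 2.41 to 3.05%), the 4 h library 232 (2.91%, 2.55 to 3.30%) and the 8 h library 96 (2.49%, 2.02 to 3.03%). Each interval overlapped those of the other libraries. With at most 3000 genes per barcode, the upper limit in the study's methods, the shares were 1.11% (0.887 to 1.36%), 0.616%, 0.538% and 0.262% (0.120 to 0.496%), highest with no LPS and lowest in the 8 h library. After barcodes of at least 5000 UMIs were thinned to 5000, the shares were 4.95% (4.23 to 5.76%), 5.41% (4.71 to 6.18%), 4.07% (3.47 to 4.74%) and 3.50% (2.73 to 4.42%), against 7.0%, 7.21%, 5.79% and 4.73% of the same barcodes before thinning. The interval at 8 h lay below that at 2 h on this measure. After thinning to 2000 UMIs the shares were 1.58%, 1.43%, 1.46% and 1.61%, against 3.46%, 3.03%, 3.16% and 3.21% of the same barcodes before thinning. Here 8 h stood above 2 h before thinning as well as after it, so the order of the libraries differed with the barcodes kept. The level of the 3 rule genes over all barcodes, which needs no limit per barcode, was 192 (189 to 196), 199 (196 to 203), 202 (199 to 206) and 230 (224 to 235) CPM. On that measure the 8 h value was the highest. There 96 cycling barcodes held 95.5% of these UMIs, and the spread between barcodes is not in the intervals. With 1 library per treatment, none of these orders can be separated from differences between libraries.

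**Figure D2:**
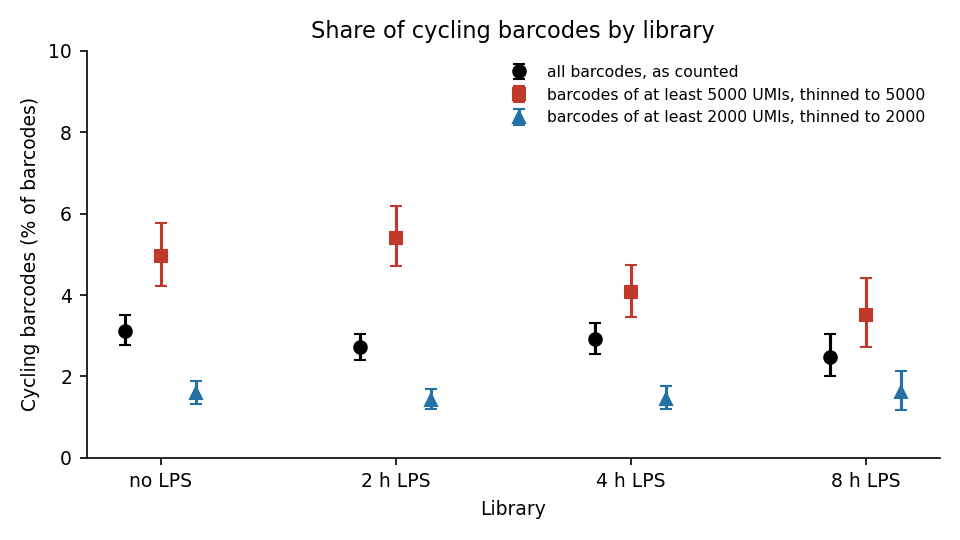
Share of cycling barcodes (percent) in each library, as counted and after thinning to 5000 or 2000 UMIs, with exact 95% binomial intervals as bars. As counted the 4 shares lie between 2.49% and 3.12%, and the library at 8 h is below that at 2 h after thinning to 5000 UMIs but not after thinning to 2000.

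The lineage of the cycling cells was read from small marker sets, with at least 3 UMIs of a set asked of a barcode. The plasma cell set, made of JCHAIN (the chain that joins IgA and IgM) and MZB1 (a chaperone of antibody assembly), was met by 410 of the 876 cycling barcodes (46.8%, 43.5 to 50.2%) and by 2.45% of the others. Of the other barcodes with the CD3 set and no B set, which should lack these genes, 0.422% met it at a median of 4770 UMIs, and 2.62% of those with at least 10000 UMIs met it. At any depth this background was 0.317%, 0.316%, 0.233% and 1.34% in the no LPS, 2 h, 4 h and 8 h libraries. After every barcode was thinned to 2000 UMIs, with at least 2 UMIs asked, the plasma cell set was met by 40.4% (37.1 to 43.8%) of cycling barcodes and 1.77% of the others. The thinning left out 20 cycling and 3976 other barcodes that held fewer UMIs. The excess of the plasma cell set in cycling barcodes was therefore present at equal depth.

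For the T and B cell sets the direction depended on how depth was handled. The CD3 set (CD3D, CD3E and CD3G, the invariant chains of the T cell receptor complex) was met by 50.6% of cycling and 37.6% of other barcodes as counted, and by 18.3% and 29.2% after thinning. The B set, with MS4A1, CD79A and CD79B among its genes, was met by 49.5% and 28.5% as counted, and by 13.8% and 25.9% after thinning. After thinning both sets were thus found less often in cycling barcodes than in the rest. Among barcodes of at least 10000 UMIs, as counted, the CD3 set was met by 55.1% (51.5 to 58.7%) of cycling and 30.2% of other barcodes, and the B set by 55.5% (51.9 to 59.1%) and 50.1%, so there both were found more often. The CD4 set was met by 18.4% and 3.37% as counted and by 2.22% and 2.49% after thinning, and the CD8 set by 13.9% and 2.54% as counted and by 2.92% and 1.60% after thinning. The WC1 set, for the scavenger receptors of bovine gamma-delta T cells, was met by 1.37% of cycling and 0.700% of other barcodes as counted. After thinning it was met by 0 of 856 cycling barcodes, which allows a share of up to 0.430%, and by 0.645% of the others. The NK cell set was met by 1.03% of cycling barcodes and 0.218% of the others as counted, 4 barcodes met the dendritic cell set and 2 the progenitor set.

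**Figure D3:**
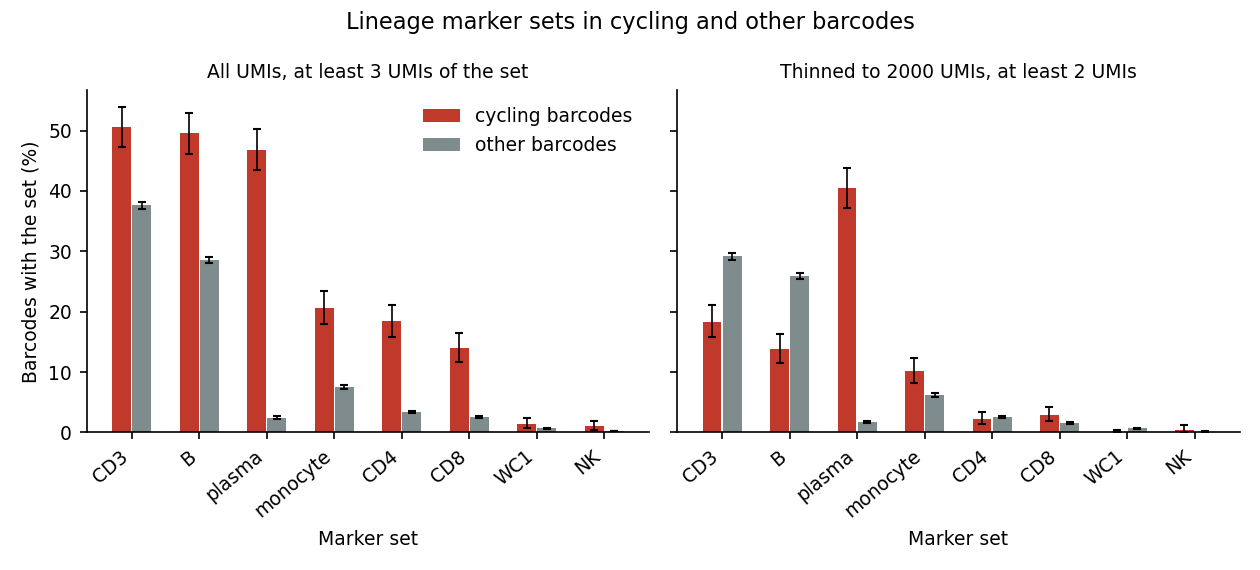
Percent of cycling and of other barcodes that met each marker set, over the 4 libraries, as counted on the left and after thinning to 2000 UMIs on the right, with exact 95% binomial intervals as bars. The plasma cell set is met by 46.8% of cycling barcodes as counted and by 40.4% after thinning, while the CD3 and B sets are above the other barcodes on the left and below them on the right, after thinning.

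Both the CD3 and the B set were met by 112 cycling barcodes (12.8%, 10.6 to 15.2%), with a median of 53253.5 UMIs, against 1.92% of the others. At 40000 UMIs or more the share was 30.8% in cycling and 32.3% in other barcodes. By library, 10.6%, 9.54%, 14.2% and 25% of cycling barcodes met both sets in the no LPS, 2 h, 4 h and 8 h libraries. Such barcodes may hold more than 1 cell, no doublet caller was run, and their part in the results was not tested. The monocyte set was met by 20.5% of cycling and 7.53% of other barcodes. Among barcodes of at least 10000 UMIs it was met by 22.4% and 44.6%. The summed level of the monocyte list was 2466, 931, 1160 and 1577 CPM in cycling barcodes and 3383, 1581, 978 and 1780 CPM in the others, highest with no LPS in both groups, and lowest at 2 h in cycling and at 4 h in other barcodes.

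Barcodes were then sorted by which of the CD3, B and plasma cell sets they met. The CD3 set alone was met by 306 cycling barcodes (34.9%), and the plasma cell and B sets without CD3 by 275 (31.4%). These are called CD3-only and plasma-and-B barcodes. The B set alone was met by 47, the plasma cell set alone by 35, CD3 and B by 37, CD3 and plasma cell by 25, all of CD3, B and plasma cell by 75, and none of the 3 sets by 76, whose median was 4751 UMIs. All 876 cycling barcodes are in these patterns. The plasma cell set alone was met by 21, 9, 5 and 0 cycling barcodes in the 4 libraries. It alone was met by 43, 23, 22 and 103 other barcodes, those at 8 h with a median of 1761 UMIs.

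Cycling was common among plasma-and-B barcodes. Of these, 37.4% (30.8 to 44.5%) with no LPS, 47.5% (40.8 to 54.3%) at 2 h, 40.2% (32.9 to 47.9%) at 4 h and 22.2% (14.8 to 31.2%) at 8 h were cycling. The 8 h interval lay below those at 2 h and 4 h. At 8 h the plasma-and-B barcodes that were not cycling had a median of 8788.5 UMIs, against 14877, 15483 and 13766 in the other libraries. The parts of depth and of the higher background of the plasma cell set at 8 h in the lower share were not tested. Of CD3-only barcodes 2.88%, 2.75%, 2.92% and 2.51% were cycling, a range in which no library stood apart. Of barcodes with the B set alone 0.622% were cycling. The patterns also differed in depth. Over the 4 libraries, barcodes that were not cycling had a median of 14323 UMIs in plasma-and-B, 4766 in CD3-only and 4868 with the B set alone. The part of depth in the different shares of the patterns was not tested.

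Cycling CD3-only barcodes were of several kinds. The CD4 set was met by 131 of 306 (42.8%), the CD8 set by 83 (27.1%), both by 3 and neither by 95 (31.0%). Among barcodes of at least 10000 UMIs the CD4 set was met by 45.3% of cycling and 21.7% of other CD3-only barcodes and the CD8 set by 28.3% and 14.5%, at medians of 21942.5 and 13446 UMIs. The WC1 set was met by 0.725% of these deep cycling barcodes and 4.17% of the deep others. IL2RA, the high-affinity chain of the interleukin-2 receptor, reached 3 UMIs in 18.8% of deep cycling and 28.9% of deep other CD3-only barcodes, and PRF1 (perforin) in 15.2% and 15.1%. NKG7, a protein of cytotoxic granules, reached it in 31.2% and 17.4%.

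Across all genes tested, 292 of 10583 were higher in cycling than in other barcodes in every library (2.76%) and 41 were lower (0.387%). Since the barcodes were chosen in this contrast, these counts are a description. The median ratio of all genes was −0.04 on the log2 scale of (CPM + 10). Of the 292 higher genes 140 were in the cell cycle lists. Among barcodes of at least 10000 UMIs 286 genes were called higher, 248 of the 292 among them, and 31 were called lower, 1 of the 41 among them. The other barcodes of that depth also differed in lineage, with the monocyte set in 44.6% against 7.53% of all other barcodes, and the parts of depth and lineage in the lower calls were not tested.

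The spindle, kinetochore and checkpoint list had the highest median of the cell cycle lists, with 41 of 44 genes higher and a median ratio of 2.29 (log2). SPC24, a subunit of the NDC80 complex that ties kinetochores to microtubules, stood at 223, 248, 239 and 201 CPM in cycling barcodes and at 3.05, 1.62, 1.88 and 3.25 CPM in the others. TPX2, which activates Aurora A on the spindle, stood at 214, 238, 215 and 210 CPM against 6.43, 4.94, 4.64 and 6.68 CPM. The cycling levels of both genes lay close together over the 4 libraries and far above the others. Of the mitotic kinases and anaphase regulators 25 of 33 were higher (median 1.88). PTTG1, or securin, which holds separase in check until anaphase, stood at 312, 352, 292 and 279 CPM against 4.03, 4.34, 4.17 and 6.08 CPM. UBE2C, the ubiquitin-conjugating enzyme of the anaphase-promoting complex, stood at 403, 462, 330 and 371 CPM against 7.90, 6.81, 7.71 and 15.5 CPM. AURKB, the passenger complex kinase, stood at 74.5, 81.9, 76.1 and 73.2 CPM against 0.741, 0.505, 0.639 and 1.93 CPM. Each of the 3 mitotic regulators was at least 10 times as high in every cycling group as in the others of its library.

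Of the genes for replication licensing and the replication fork 22 of 46 were higher (median 1.08). All 46 had a ratio above 0 in every library, as had 3174 of all 10583 genes tested. PCNA, the sliding clamp, stood at 402, 539, 469 and 348 CPM against 66.8, 77.3, 75.7 and 82.2 CPM in the others. MCM5, a subunit of the replicative helicase, stood at 136, 184, 160 and 140 CPM against 17.7, 21.4, 20.5 and 26.5 CPM. UHRF1, which guides maintenance of DNA methylation behind the fork, stood at 91.3, 109, 90.4 and 90.2 CPM against 1.80, 0.901, 0.742 and 2.19 CPM. The 3 genes were thus read in other barcodes to very different degrees. Of the nucleotide synthesis genes 6 of 16 were higher (median 0.85). RRM2, the ribonucleotide reductase subunit made in S phase, stood at 99.3, 121, 102 and 85.9 CPM against 1.54, 0.613, 0.845 and 1.89 CPM. DUT, which removes dUTP, stood at 904, 1091, 943 and 746 CPM against 122, 126, 130 and 123 CPM.

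The lists of regulators were divided. Of the cyclins and cyclin-dependent kinases 8 of 17 were higher (median 0.76). CCNB1, the mitotic cyclin, stood at 117, 122, 105 and 97.4 CPM against 0.601, 0.451, 0.454 and 1.85 CPM, and CCNA2, the S and G2 phase cyclin, at 99.5, 108, 97.4 and 94.0 CPM against 0.521, 0.360, 0.268 and 1.51 CPM. The G1 cyclins CCND2 and CCND3 were not higher, and levels of other G1 cyclins are not given here. CCND2 stood at 53.6, 68.6, 76.6 and 86.1 CPM in cycling barcodes against 103, 199, 204 and 139 CPM, and CCND3 at 56.3, 55.9, 51.0 and 58.9 CPM against 148, 145, 138 and 126 CPM. Both stood lower in cycling than in other barcodes of each library, although neither was 2-fold lower in all 4 libraries. Of the 17 genes of the list 14 had a ratio above 0 in every library. Of the CDK inhibitors and RB family 1 of 12 was higher (median −0.23), namely CDKN2C, or p18, at 49.1, 39.3, 44.0 and 39.4 CPM against 7.03, 4.27, 4.95 and 6.53 CPM. CDKN1A, or p21, stood at 30.6, 56.1, 49.2 and 39.4 CPM against 81.4, 164, 95.3 and 73.8 CPM and was not called. Of 12 cell cycle transcription factors 3 were higher (median 0.60). Of these MYBL2, which drives late cell cycle genes, stood at 74.6, 95.7, 86.1 and 74.8 CPM against 7.15, 7.69, 10.7 and 11.3 CPM, while MYC stood at 38.6, 48.1, 49.3 and 46.9 CPM against 84.2, 131, 139 and 110 CPM and was not called.

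Chromatin and repair genes followed. Of the condensin, cohesin and chromatin list 17 of 33 were higher (median 1.18), of the S phase repair list 10 of 24 (median 1.06) and of the tubulin and cytoskeleton list 4 of 15 (median 0.64). HMGB2, a DNA-bending protein, stood at 1990, 2219, 2136 and 2241 CPM against 324, 303, 277 and 334 CPM. H2AFZ, the histone variant H2A.Z, stood at 889, 978, 859 and 739 CPM against 114, 117, 142 and 146 CPM. STMN1, or stathmin, which destabilises microtubules, stood at 666, 775, 713 and 560 CPM against 45.3, 47.2, 45.1 and 40.6 CPM. These 3 were abundant genes of the cycling barcodes that were also read in the rest. BRCA2, of homologous recombination, stood at 107, 114, 108 and 95.6 CPM against 13.6, 14.8, 13.5 and 15.9 CPM.

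Among the lineage lists, that of plasma cells was higher. Of 14 plasma cell genes 8 were higher (median 1.36). JCHAIN stood at 3764, 4693, 3540 and 3130 CPM against 510, 410, 291 and 212 CPM, and MZB1 at 1346, 1479, 1085 and 776 CPM against 122, 108, 55.1 and 39.4 CPM. Both genes were at their lowest at 8 h in both groups. Of 16 T cell genes none was higher and 1 was lower (median −0.45), which was TCF7, a factor of naive and memory T cells, at 24.7, 32.7, 19.5 and 22.4 CPM against 82.4, 87.0, 91.0 and 88.9 CPM. Of 19 B cell genes 2 were higher and 2 lower (median −0.73). The interferon-stimulated list had 0 of 33 genes called (median −0.41), the inflammatory list 0 of 30 (median −0.52) and the glycolysis list 0 of 16 (median 0.36). GNLY, which encodes the lytic granule protein granulysin, was the single gene of the CD8 and cytotoxic list that was higher (1 of 11), at 393, 322, 468 and 290 CPM against 77.2, 107, 104 and 99.6 CPM.

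**Figure D4:**
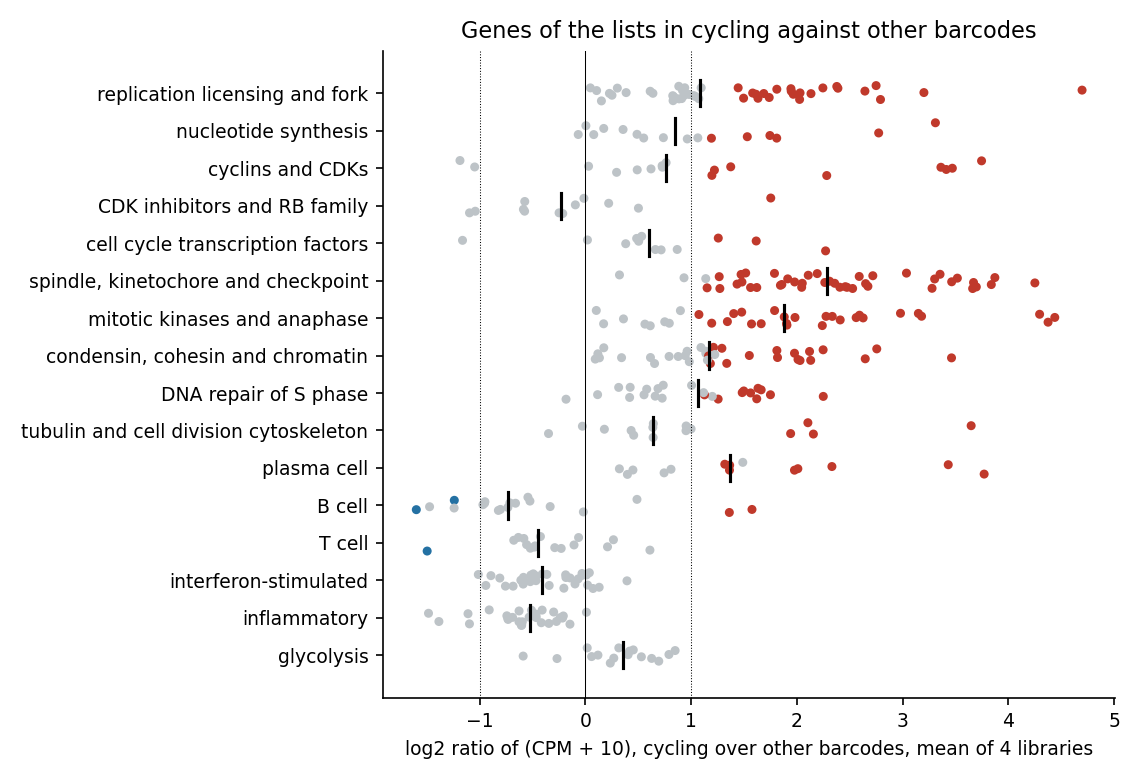
Mean over 4 libraries of the log2 ratio of (CPM + 10) in cycling over other barcodes, 1 point per gene, red where higher and blue where lower in all 4 libraries, with the list median as a black line and 2-fold as dotted lines. The spindle list (median 2.29) and the mitotic list (median 1.88) lie farthest right, and the CDK inhibitor, B cell, T cell, interferon-stimulated and inflammatory lists have medians below 0.

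Outside the cell cycle lists, the genes with the largest ratios in all libraries included MZB1 and JCHAIN. CEP55, which acts in the final separation of daughter cells, stood at 90.1, 95.8, 75.4 and 77.9 CPM against 0.762, 0.487, 0.309 and 1.06 CPM. ENSBTAG00000055240, which the files pair with no symbol, stood at 6139, 4129, 4881 and 4228 CPM against 522.3, 357.2, 391.6 and 502.1 CPM. On the lower side, CCR7, the homing receptor of naive lymphocytes, stood at 70.7, 90.7, 91.3 and 63.9 CPM in cycling barcodes against 222, 372, 350 and 259 CPM. Among barcodes of at least 10000 UMIs the mean log2 ratio of CCR7 was −1.33, while that of TCF7 was −0.16.

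The comparison was repeated within each of the 2 main patterns. Within CD3-only barcodes 333 of 8821 genes were higher in cycling barcodes (3.78%) and 36 lower (0.408%), and 43 of 44 spindle genes (median 2.82), 25 of 33 mitotic genes and 32 of 45 replication genes were higher. CCND2 stood at 37.3, 43.3, 47.7 and 74.9 CPM in cycling CD3-only barcodes against 149, 174, 193 and 176 CPM in other CD3-only barcodes and was called lower there. Of 16 T cell genes none was called (median −0.24). Within plasma-and-B barcodes 179 of 9143 genes were higher (1.96%) and 18 lower (0.197%), with 37 of 44 spindle genes (median 2.10), 25 of 31 mitotic genes and 23 of 46 replication genes higher. None of 14 plasma cell genes was called there (median 0.43), while 4 of 19 B cell genes were lower (median −0.79), namely CD22, FCRLA, VPREB3 and TNFRSF13C. MS4A1, which encodes CD20, was one of the genes that set the pattern. It stood at 98.5, 115, 145 and 215 CPM in cycling and at 416, 412, 501 and 433 CPM in other plasma-and-B barcodes.

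Cycling plasma-and-B barcodes were then set against cycling CD3-only barcodes. Of 10023 genes 203 were higher in plasma-and-B barcodes in all 4 libraries (2.03%) and 277 lower (2.76%), with a median over all genes of −0.10. That T cell genes (14 of 16 lower) and B and plasma cell genes (11 of 19 and 9 of 14 higher) differed follows in part from the sets that defined the patterns. Most cell cycle genes were not called, with medians of −0.76 for the spindle list, −0.60 for the mitotic list and −0.23 for the replication list. The exceptions were lower in plasma-and-B barcodes. They were 1 of 3 rule genes, 1 of 46 replication genes, 1 of 17 cyclins and CDKs and 2 of 12 CDK inhibitor and RB family genes. The spindle list had 1 of 44, the chromatin list 2 of 33 and the tubulin list 3 of 15, beside 2.76% of all genes. TOP2A stood at 238, 333, 306 and 427 CPM there and at 862, 702, 732 and 935 CPM in CD3-only barcodes, and it was also a gene of the rule. STMN1 stood at 406, 451, 469 and 354 CPM against 1370, 1460, 1391 and 1165 CPM. CDC25B, a phosphatase that activates CDK1, stood at 51.4, 73.1, 47.5 and 86.2 CPM against 231, 208, 154 and 202 CPM, and CDKN2C at 26.4, 21.9, 23.9 and 21.4 CPM against 118, 78.0, 87.0 and 90.6 CPM. These 4 genes were among those called, so the gap in their levels between the patterns follows from the call. The median of cycling plasma-and-B barcodes was 39576 UMIs and that of cycling CD3-only barcodes 20885.5 UMIs. The rule asked the same number of UMIs of both, so a deeper barcode met it at a lower CPM of the rule genes. The part of this in the lower levels was not tested.

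Each barcode was also described by its UMIs per 10000 of the replication list (S list) and of the spindle, mitotic and cyclin lists without the rule genes (M list), without calling a phase. In cycling barcodes the median was 30.7 for the S list and 67.3 for the M list, and in other barcodes 7.75 and 10.1. By library the S list median was 30.3, 32.7, 29.7 and 28.1 and the M list median 69.5, 71.1, 60.6 and 68.5. The S list exceeded the M list in 164 cycling barcodes (18.7%), and by library in 11.7%, 21.2%, 22.8% and 20.8%. The S list has 46 genes and the M list joins lists of 44, 33 and 18 genes. This share therefore depends on list size and is not the share of cells in a phase. In other barcodes, where both lists were low, the S list exceeded the M list in 29.4%. In CD3-only cycling barcodes the medians were 39.0 for the S list and 104 for the M list, and in plasma-and-B cycling barcodes 29.3 and 54.6. How many cells in early S phase the rule left out was not tested.

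Within cycling barcodes, cell cycle genes did not pass 2-fold with LPS. Against no LPS, none of 46 replication genes and none of 44 spindle genes was 2-fold higher or lower at 2 h, 4 h or 8 h. The replication list medians were 0.24, 0.12 and 0.01 (log2) and the spindle list medians 0.06, −0.03 and 0.02. Over all genes, 19 of 9874 were higher at 2 h (0.192%) and 148 lower (1.5%), 67 of 9917 higher at 4 h (0.676%) and 75 lower (0.756%), and 24 of 9669 higher at 8 h (0.248%) and 35 lower (0.362%). The plasma cell list had 0, 0 and 1 of 14 genes called, with medians of 0.15, −0.20 and −0.43. JCHAIN within cycling plasma-and-B barcodes stood at 6583, 7863, 6656 and 6857 CPM. It is a gene that set this pattern, so its level there is tied to the choice of barcodes. The plasma cell list had a median of −0.34 in cycling plasma-and-B barcodes at 8 h, with 1 of 14 genes lower.

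Interferon-stimulated genes were higher at 4 h. In cycling barcodes 3 of 32 were called higher at 2 h (median 0.41), 27 of 33 at 4 h (median 1.70) and 3 of 32 at 8 h (median 0.51). In other barcodes of the same libraries the counts were 5, 25 and 0 of 34 (medians 0.34, 1.71 and 0.36), beside 0.437%, 0.624% and 0.0824% of all genes. ISG15, a ubiquitin-like antiviral protein, stood at 128 (121 to 136), 505 (490 to 521), 2020 (1989 to 2051) and 296 (280 to 312) CPM in cycling barcodes and at 179, 1178, 2892 and 357 CPM in the others. At 8 h 1 cycling barcode held 29% of its UMIs. MX1, an antiviral GTPase, stood at 13.2, 59.9, 291 and 59.4 CPM in cycling barcodes and at 45.9, 136, 481 and 89.8 CPM in the others. For both genes the 4 h library was the highest in cycling and in other barcodes. At 4 h 25 of 32 genes of the list were higher in cycling CD3-only barcodes (median 1.58, with 0.882% of all genes) and 26 of 32 in cycling plasma-and-B barcodes (median 1.5, with 0.869% of all genes).

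Some inflammatory genes were higher at 2 h. In cycling barcodes 5 of 30 were higher and 2 lower at 2 h (median 0.44), 4 and 1 of 30 at 4 h (median 0.42) and 1 and 2 of 29 at 8 h (median 0.29). In other barcodes 11 and 2 of 31 were called at 2 h (median 0.78), 3 and 5 at 4 h (median −0.14) and 1 and 3 at 8 h (median 0.06), beside 1.06%, 1.77% and 0.544% of all genes that were lower in the other barcodes. CCL20, a chemokine for CCR6-bearing cells, stood at 7.74, 370, 67.5 and 12.2 CPM in cycling barcodes and at 56.8, 781, 144 and 77.1 CPM in the others. It was detected in 17.3% of cycling barcodes at 2 h, and 1 barcode held 15.8% of its UMIs there. PTGS2, the inducible prostaglandin synthase, stood at 33.7, 178, 80.6 and 65.0 CPM against 59.3, 402, 98.8 and 85.8 CPM. CCL2, the monocyte chemokine, stood at 6421, 1255, 1260 and 3015 CPM in cycling barcodes and at 10162, 2212, 1009 and 3518 CPM in the others, highest with no LPS in both groups. It was detected in 81.9%, 35.7%, 32.3% and 70.8% of cycling barcodes. Genes of the monocyte list were lower with it, 10, 7 and 3 of 14 at 2 h, 4 h and 8 h in cycling barcodes and 8, 11 and 5 of 14 in the others. The part of free monocyte RNA, or of monocytes sharing a barcode, in the cycling levels of such genes was not tested.

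The 2 main patterns were also followed on their own. In cycling CD3-only barcodes 12 inflammatory genes of 27 were higher and 2 lower at 2 h (median 0.89), where 0.535% of all genes were higher and 1.41% lower. At 4 h 4 of 26 were higher and 2 lower (median −0.23, with 2.18% of all genes lower), and at 8 h 6 of 26 were higher and 3 lower (median 0.15), where 0.522% of all genes were higher and 0.978% lower. In cycling plasma-and-B barcodes 6 of 28 were higher and 1 lower at 2 h (median 0.57), where 0.271% of all genes were higher and 0.708% lower. At 4 h 6 of 27 were higher and 2 lower (median 0.38, with 0.386% of all genes lower), and at 8 h 4 of 27 were higher and 3 lower (median 0.22), where 0.688% of all genes were higher and 0.369% lower. None of the replication genes tested was called at any time in either pattern. Of the spindle list 2 of 43 genes were higher in plasma-and-B barcodes at 8 h (median 0.17). None of that list was called at the other times or in CD3-only barcodes. Of the 3 rule genes 1 was higher in plasma-and-B barcodes at 8 h (median 0.82). In CD3-only barcodes 1 of 10 CDK inhibitor and RB family genes was higher at 2 h and 1 lower at 4 h. Of the tubulin and cytoskeleton list 1 of 15 genes was lower in CD3-only barcodes at 4 h.

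**Figure D5:**
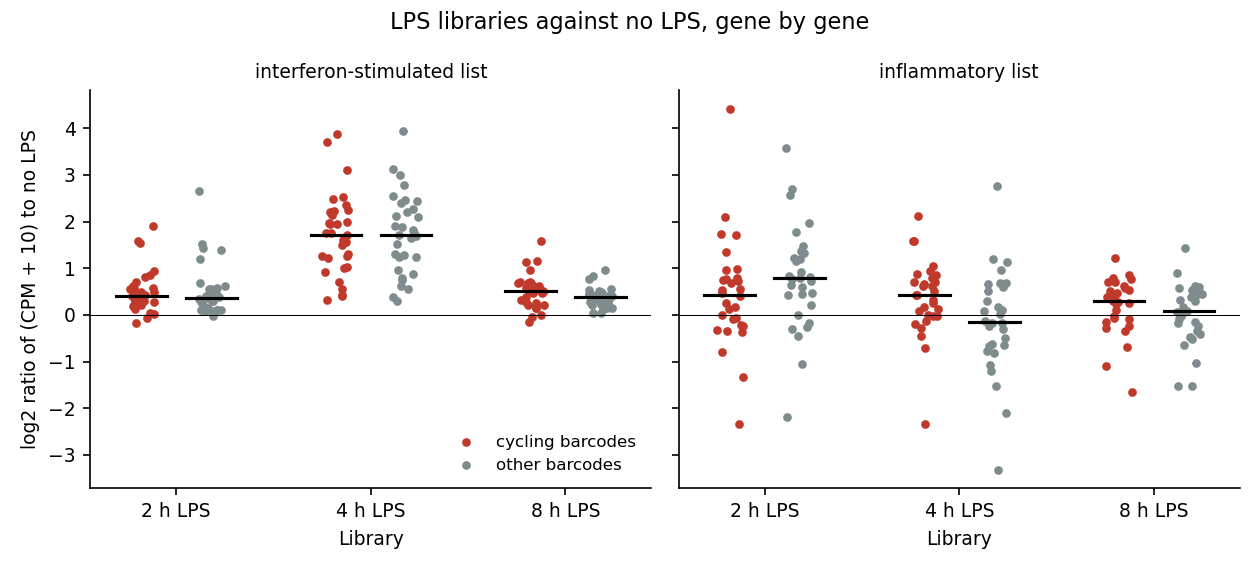
log2 ratio of (CPM + 10) in each LPS library to no LPS, 1 point per gene, for the interferon-stimulated list on the left and the inflammatory list on the right, in cycling and other barcodes, with medians as black lines. Only genes with enough UMIs in both groups are drawn. At 4 h nearly all interferon-stimulated genes are above 0 in both groups, while the inflammatory medians lie above 0 in cycling barcodes and below 0 in the others.

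GZMB, the granule protease that starts death of target cells, was higher in cycling CD3-only barcodes than in the other groups given here. Its symbol is carried by 2 genes in the files, and reads of 2 such genes may be split between them, so they were summed. The sum stood at 98.6, 558, 424 and 380 CPM in cycling CD3-only barcodes and at 20.1, 55.8, 58.9 and 11.6 CPM in other CD3-only barcodes. In cycling plasma-and-B barcodes it stood at 9.12, 11.1, 5.55 and 9.49 CPM. At least 3 UMIs were found in 12 of 84 cycling CD3-only barcodes with no LPS (14.3%), 27 of 98 at 2 h (27.6%), 15 of 90 at 4 h (16.7%) and 5 of 34 at 8 h (14.7%). The level was thus higher in each LPS library, while the share of barcodes was above that of no LPS mainly at 2 h. Over all cycling barcodes 1 barcode held 17.7%, 32.9% and 55.4% of the GZMB UMIs at 2 h, 4 h and 8 h, against 10.3% with no LPS.

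The lower level of ENSBTAG00000047632 at 8 h rested on few cycling barcodes. It stood at 227 CPM (1848 UMIs) with no LPS and at 1.59 CPM (7 UMIs) at 8 h. It was detected in 7 and 3 cycling barcodes, and 1 barcode held 58.0% of the UMIs with no LPS. At 2 h and 4 h it was not lower, with 2704 and 4530 UMIs, each in 9 cycling barcodes. HMOX1, the haem oxygenase of macrophages, stood at 74.3 CPM with no LPS and 3.27 CPM at 2 h and was detected in 24.5% and 4.95% of cycling barcodes. Its log2 ratio at 2 h was −2.67 in cycling and −2.27 in other barcodes. SAA2, an acute phase protein, stood at 1085 CPM with no LPS and 239 CPM at 8 h, where 1 barcode held 45.8% of its UMIs. It was detected in 19.6% and 21.9% of cycling barcodes. Its log2 ratio at 8 h was −2.14 in cycling and −1.50 in other barcodes.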

How the data were processed

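Single-cell RNA-seq libraries (10x 3' v3) of 4 treatments were used, and 4 chromatin accessibility libraries were not used here. The authors deposited raw counts, 1 UMI count for each gene in each barcode, from Cell Ranger and the ARS-UCD1.2/bosTau9 genome. Of 30756 deposited barcodes 30732 had at least 200 genes and were kept, with no upper limit and no doublet caller. Summed UMIs of each library and group were turned into CPM, and 10 was added before ratios were taken, for genes with at least 20 UMIs in the cycling barcodes compared (50 for genes named for LPS). Called means 2-fold, in each of 4 libraries between groups of barcodes. With 1 library per treatment no test was run. Python 3.11.15, numpy 2.4.6 and scipy 1.17.1 were used, with TMM factors of edgeR 4.0.16 and size factors of DESeq2 1.42.0 as alternative scalings only. The ratio step was checked on simulated counts. Thinning drew UMIs without replacement. Marker sets needed 3 UMIs (2 after thinning). Named genes are members of 31 fixed lists, or the 10 (LPS: 5) largest ratios each way, from which the text gives a part, and some items are not reported here. GZMB, HMOX1, SAA2, GNLY and the numbers of barcodes behind them were given after their values were seen. The members and lists were chosen with earlier results of these data known.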

Additional observations from a re-analysis of the deposited data

Results flagged for a closer look

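At 4 h of LPS the median log2 ratio to no LPS of the inflammatory list was above 0 in cycling barcodes (0.42) and below 0 in the other barcodes (−0.14). The same list had a median of −0.23 in cycling CD3-only barcodes and 0.38 in cycling plasma-and-B barcodes. The activation list, also at 4 h, had a median of −0.19 in cycling CD3-only and 0.29 in cycling plasma-and-B barcodes. Each pair is given because the 2 groups lay on opposite sides of 0 in the 1 library of that time, and the differences were not tested.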

How the results depend on the processing

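No paired analysis was possible because each treatment had 1 library and no result came from a test. The share of cycling barcodes moved most with an upper limit of 3000 genes, to 1.11%, 0.616%, 0.538% and 0.262% with no LPS and at 2 h, 4 h and 8 h (0.688% in all), where the level of the rule genes was 34.3, 30.3, 19.8 and 22 CPM (27.4 in all). A sum of at least 2 UMIs gave 3.78%, 3.42%, 3.46% and 3.40% (3.53% in all). A sum of at least 5 gave 2.70% with no LPS, 2.40% at 2 h and 2.51% in all, detection of 2 of the 3 genes 2.63% in all, and leaving out barcodes of both CD3 and B sets (chosen after seeing the data) 1.94% at 8 h and 2.54% in all. The equal-depth share was 1.58%, 1.43%, 1.46% and 1.61% (1.5% in all) at 2000 UMIs, against 4.60% in all at 5000. Thinning moved the CD3 set to 18.3%, the B set to 13.8%, the plasma cell set to 40.4% and the monocyte set to 10.2% of cycling barcodes.

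Of genes against other barcodes, a pseudocount of 1 gave 517 higher and 208 lower (292 and 41 in the report), so that 71.3% of called genes were higher rather than 87.7%. Lower genes numbered 85 with barcodes weighted equally (76.7% higher), 69 without the 8 h library, 95 within the B set (77.3% higher) and 11 at 3000 genes or fewer, where 144 were higher. Scaling by TMM or by DESeq2 size factors gave 291 and 39, or 308 and 31. With LPS, a pseudocount of 1 gave 90 genes higher and 463 lower in the 2 h library, 178 higher and 269 lower in the 4 h library, and 162 higher and 131 lower in the 8 h library. Equal weights gave 130 higher at 8 h, and leaving out barcodes of both sets gave 84 lower at 2 h. Of 2422 values of named genes under alternatives 2415 kept their sign. The 7 exceptions were a gene with no symbol (−0.50 within the CD3 set, −0.52 at 3000 genes or fewer), another with no symbol (−0.15 at 3000 genes or fewer), FKBP11 (−0.70 within the CD3 set, −0.030 at 3000 genes or fewer), IRF4 (−0.23 at 3000 genes or fewer) and TXNDC5 (−0.65 within the CD3 set). The causes were not tested. The planned search for motifs in promoters was not run. Barcodes with few UMIs limit every per-barcode share, and 1 library per treatment limits every comparison over time.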

Other observations

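GNLY was read in cycling barcodes of the B lineage pattern as well as in those with CD3, which was noticed after the values were seen. At least 3 UMIs were found in 192 of 275 cycling plasma-and-B barcodes (69.8%, 64.0 to 75.2%), and in 69.7%, 69.5%, 68.6% and 75% of them by library. The share was 23.9% in other plasma-and-B barcodes, 35.8% in those of at least 10000 UMIs, and 0.266% in other barcodes with the B set alone. The level was 380, 335, 530 and 483 CPM in cycling plasma-and-B barcodes with no LPS and at 2 h, 4 h and 8 h, and 328, 486, 289 and 108 CPM in other plasma-and-B barcodes. With the B set alone and not cycling it was 7.48, 6.68, 8.35 and 3.98 CPM. Other genes of cytotoxic granules were read there in few barcodes, with at least 3 UMIs of NKG7 in 4.00%, of PRF1 in 1.82% and of GZMB in 5.82% of cycling plasma-and-B barcodes. In cycling CD3-only barcodes GNLY reached 3 UMIs in 67 of 306 (21.9%).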
